A study of Homo sapiens with 12 samples.

Results

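Interferon signalling starts when a secreted interferon binds a receptor made of 2 different chains, and the kinases bound to those chains then activate STAT proteins. The 10 genes described here are the start of that pathway: the ligands IFNB1 and IFNL1, the receptor subunits IFNAR1, IFNAR2, IFNGR1, IFNGR2 and IFNLR1, and the Janus kinases JAK1, JAK2 and TYK2. They were taken by symbol from a deposited table of 58735 genes, and each symbol matched 1 row. The question was whether ligand or receptor transcripts moved with the interferon-stimulated genes in tumor-associated macrophages (TAMs).

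The TAMs were THP-1 cells, a human monocytic leukemia line, differentiated with phorbol ester (PMA) and cocultured across a membrane with AsPC-1 cells, a human pancreatic cancer line, so they are a cell-line model and not macrophages from a tumor. Each of the 4 groups held 3 libraries. TAMs of the control group (labelled NC) were cocultured with AsPC-1 cells that carried the empty vector. TAMs of the OE-MMP28 group were cocultured with AsPC-1 cells made to overexpress MMP28, a secreted metalloproteinase, by lentivirus. The 2 remaining groups had the same OE-MMP28 coculture with a neutralizing antibody added against IL-8 (anti-IL-8) or against VEGFA (anti-VEGFA). MMP28 was therefore overexpressed in the cancer cells of 3 groups, 9 libraries in all. Whether a control antibody was present in any sequenced coculture and whether the 3 libraries of a group came from separate cultures are not given in the sources used here, so every p-value measures only the spread between these libraries, which may be technical.

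Library totals lay between 15852346 and 18701195 counts, and mitochondrial genes took 6.92% to 17.8% of them, with both ends of that range in the anti-VEGFA group. CPM values are counts scaled to equal library totals by TMM. A total of 3 counts corresponded to 0.160 to 0.189 CPM from the library totals, without TMM. Levels below that are treated as at the limit of detection. Of 10 macrophage markers, 9 passed the filter on low counts. The summed level of all 10 was 2014 to 2282 CPM in control and 2159 to 3485 CPM in OE-MMP28. The sum was 2884 to 3581 CPM in the anti-IL-8 group and 2773 to 2939 CPM in the anti-VEGFA group. CD68, a defining macrophage marker, was the marker that did not pass, with a mean of 0.137 CPM in control and 0.215 CPM in OE-MMP28. It had 5 counts or fewer in every library. Whether that reflects the cells or how reads were counted was not tested. Of the 9 tested macrophage markers, 5 had a log2 fold change above 0 in OE-MMP28 against control, and the median was 0.08. CD14, a monocyte and macrophage surface receptor, was the 1 marker called (0.80, SE 0.19, adjusted p = 0.0272, edgeR's quasi-likelihood test), and AIF1 was at -0.48 (adjusted p = 0.193), ITGAM at -0.17 and CSF1R at -0.16. The 10 epithelial markers of the cancer cells summed to 3.13 to 6.33 CPM over all libraries, and EPCAM had 0 counts in every library. MUC1, a membrane mucin, was the 1 epithelial marker of 3 tested that was called in OE-MMP28 against control, with 3.36, 3.63 and 3.84 CPM in control and 1.70, 1.64 and 2.06 CPM in OE-MMP28 (-1.01, SE 0.25, adjusted p = 0.0341). The part of these markers in the results below was not tested. In bulk RNA, fewer expressing cells and less RNA per cell cannot be told apart.

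As background, the type I interferons (the alpha family and interferon beta, the product of IFNB1) bind IFNAR1 with IFNAR2, interferon gamma binds IFNGR1 with IFNGR2, and the lambda interferons such as IFNL1 bind IFNLR1 with IL10RB. TYK2 is associated with IFNAR1 and JAK1 with IFNAR2. At the interferon gamma receptor, JAK1 is associated with IFNGR1 and JAK2 with IFNGR2. The signal leads to STAT proteins, and STAT2 and IRF9 belong to the factor that switches on interferon-stimulated genes after type I or lambda interferon. Macrophages are known to make interferon beta themselves and to respond to it.

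The interferon-stimulated genes set the pattern that the ligands and receptors were compared with. Of a list of 25 such genes, 24 were tested, and all 24 fell in OE-MMP28 against control (adjusted p under 0.05, edgeR's quasi-likelihood test, Benjamini-Hochberg over 16046 genes), where 2.64% of all tested genes were called lower. Their median log2 fold change was -3.40, against 0.02 over all tested genes. RSAD2, which encodes viperin, had a log2 fold change of -5.25 (SE 0.25), CMPK2, a mitochondrial nucleotide kinase, -4.59 (SE 0.24), and IFIT1, which binds foreign RNA, -4.47 (SE 0.24). Against the control mean of each gene, the median of the 24 genes was -0.04, 0.30 and -0.23 in the 3 control libraries on the log2 scale. It was -3.08, -3.56 and -3.94 in OE-MMP28, -3.64, -3.46 and -3.73 in the anti-IL-8 group, and -2.81, -3.06 and -3.36 in the anti-VEGFA group. All 9 libraries from OE-MMP28 cocultures thus lay far below the 3 controls, and neither antibody group overlapped the controls. The list was known to move in these libraries when the genes were chosen, so its direction is a description.

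Ligand transcripts were scarce in every group, and only in control did IFNB1 exceed 3 counts in each library. IFNB1, a gene on the minus strand of chr9 (21077105 to 21077963 in the GENCODE 29 annotation, GRCh38), had 13, 5 and 7 counts in the control libraries. The OE-MMP28 libraries had 6, 1 and 0 counts, those of the anti-IL-8 group 1, 0 and 1, and those of the anti-VEGFA group 0, 0 and 2. The 3 controls thus held 25 of the 36 IFNB1 counts (69.4%), and OE-MMP28 replicate 1 was the only other library with more than 2, overlapping the controls. IFNL1, on the plus strand of chr19 (39296325 to 39298673), had 1 count in each control library. Of the other 9 libraries only OE-MMP28 replicate 3 and anti-VEGFA replicate 1 held an IFNL1 count, 1 each, so its level could not be separated from 0 in any group.

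The upstream sequences of these ligand genes are shown because they carry the kind of sites through which interferon genes are known to be induced, with that of JAK2, the member called lower, for comparison. They come from RefSeq (GRCh38.p14), end at the base before the annotated gene start, and read 5′ to 3′ on the strand of the gene. Capitals mark matches to 3 motifs searched on both strands: an IRF element, a GAS element (a site type bound by STAT proteins) and the kappaB consensus. The stretches are chr9:21077964-21078192 on the minus strand for IFNB1, chr19:39296157-39296324 on the plus strand for IFNL1 and chr9:4984140-4984389 on the plus strand for JAK2.
IFNB1: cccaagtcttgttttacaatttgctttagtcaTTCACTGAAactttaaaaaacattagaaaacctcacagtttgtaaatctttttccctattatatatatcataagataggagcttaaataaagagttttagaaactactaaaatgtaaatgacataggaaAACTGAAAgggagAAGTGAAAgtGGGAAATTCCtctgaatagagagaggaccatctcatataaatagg
IFNL1: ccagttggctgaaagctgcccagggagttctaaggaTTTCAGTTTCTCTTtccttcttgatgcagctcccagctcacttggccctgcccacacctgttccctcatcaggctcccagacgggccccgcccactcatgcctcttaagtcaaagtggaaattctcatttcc
JAK2: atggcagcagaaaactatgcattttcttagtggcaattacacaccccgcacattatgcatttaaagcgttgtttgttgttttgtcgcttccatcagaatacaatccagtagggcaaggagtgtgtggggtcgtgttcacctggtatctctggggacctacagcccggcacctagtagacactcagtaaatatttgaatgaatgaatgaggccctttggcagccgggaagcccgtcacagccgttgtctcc
The IRF element was written as AANNGAAA, the GAS element as TTCNNNGAA, and the kappaB consensus is given by name alone. Counting back from the annotated start, the IFNB1 stretch held 2 IRF elements (-68 to -61 and -55 to -48), a kappaB match beside them (-45 to -36) and a GAS match farther out (-197 to -189). The IFNL1 stretch held 2 overlapping IRF elements (-132 to -125 and -126 to -119), which fall in 1 run of capitals. No match was present in the JAK2 stretch. Among 35116 RefSeq windows of the same kind (250 bases before to 50 after a start), 22.8% held an IRF element, 7.66% a GAS element and 5.91% a kappaB match. RefSeq windows were found for 9 of the 10 members (none for IFNAR2), 16 windows in all, of which 4 held an IRF element, 2 a GAS element and 3 a kappaB match. All 4 JAK2 windows were without any of them. The motifs were chosen after the counts were seen, and a match is a description of the letters and not of binding.

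IFNB1 was lower over the 9 libraries from OE-MMP28 cocultures than in control. The mean was 0.489 ± 0.247 CPM (SD, n = 3) in control and 0.0693 ± 0.105 CPM (SD, n = 9) in the other libraries, a difference of 0.420 CPM (two-sided exact permutation test, p = 0.0182, where the smallest possible value was 0.00909). That p was 0.0727 without control replicate 1 and again 0.0727 without control replicate 3, so the call was lost in both. A test with fewer control libraries has fewer arrangements and a larger smallest possible p. OE-MMP28 replicate 1, at 0.329 CPM, lay above control replicate 2, at 0.288 CPM. Without control replicate 1 or 3, the controls that remained were therefore not the highest libraries. Without control replicate 2, the controls that remained, at 0.766 and 0.414 CPM, lay above every other library. In this test the call thus depended on control replicates 1 and 3. From summed counts, control exceeded OE-MMP28 3.58-fold (95% interval 1.51 to 9.81), anti-IL-8 11.7-fold (2.91 to 102) and anti-VEGFA 12.5-fold (3.13 to 109). Without OE-MMP28 replicate 1, the ratio of control to OE-MMP28 was 16.2 (2.65 to 665). These intervals cover counting error only, and their width shows how little 36 reads can fix. IFNB1 did not pass the filter on low counts, so it had no part in the test across genes. When every gene with a count was kept, its adjusted p was 0.560 for OE-MMP28, 0.0312 for anti-IL-8 and 0.0328 for anti-VEGFA against control (edgeR's quasi-likelihood test), and leaving out 1 library moved the last 2 to between 0.0475 and 0.245 and to between 0.0202 and 0.285. For IFNL1 the same permutation test gave p = 0.0909 for a difference of 0.0451 CPM.

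Among the transcripts of the TAM libraries, no other ligand took the place of IFNB1. Interferon made by the AsPC-1 cells across the membrane and interferon protein were not measured here. Of 20 other interferon ligand genes (13 of them alpha interferons), 16 had 0 counts in every library, IFNG among them, and the remaining 4 (IFNA10, IFNA21, IFNW1 and IFNL4) never exceeded 2 counts in a library and held 9 counts together. Summed over all 22 ligand genes, the control libraries had 32 counts, the OE-MMP28 libraries 10, the anti-IL-8 libraries 3 and the anti-VEGFA libraries 5. A count of 0 at this depth allows a level of up to 0.160 to 0.189 CPM per library, from the library totals without TMM.

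**Figure D1:**
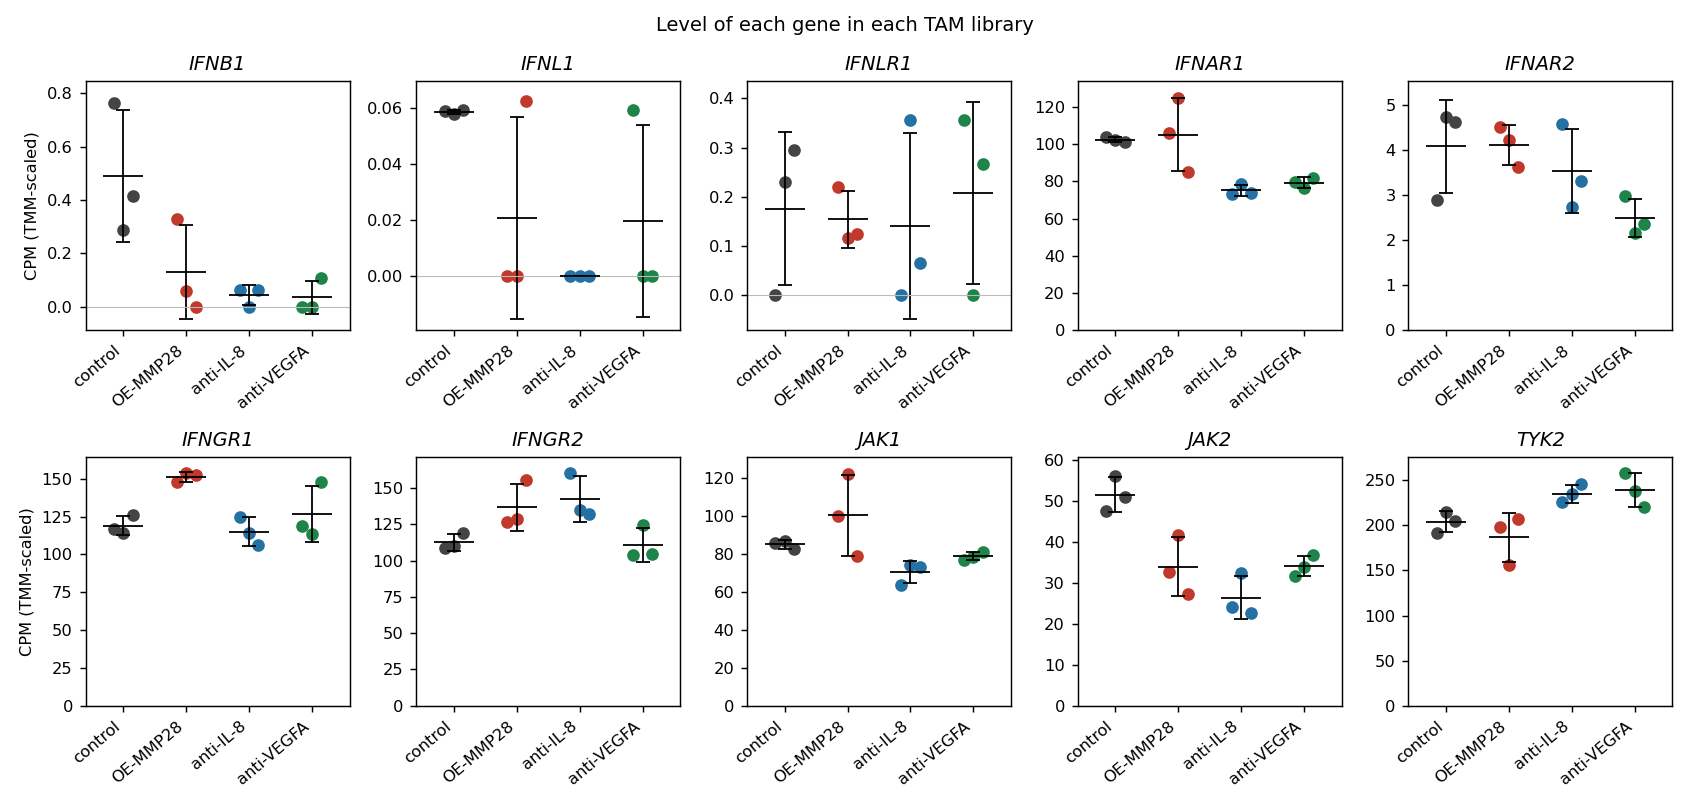
Each panel plots 1 gene, with the level in TMM-scaled CPM on the vertical axis (its own scale in each panel, from 0) and the 4 groups on the horizontal axis. Points are libraries in replicate order, and horizontal and vertical bars are the group mean and SD (n = 3). The panels of IFNB1, IFNL1 and IFNLR1 stay below 1 CPM, and JAK2 is the gene whose 9 libraries from OE-MMP28 cocultures all lie below the 3 controls, at 22.7 to 41.6 CPM against 47.5 to 56.1 CPM.

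The receptor subunits and kinases were much more abundant than the ligands, apart from the lambda receptor. On the per-length scale of the authors' FPKM, the control means were 37.6 ± 1.66 for IFNGR2, 35.9 ± 1.70 for IFNGR1, 29.8 ± 1.65 for TYK2, 16.1 ± 0.295 for IFNAR1, 13.3 ± 0.404 for JAK1 and 8.25 ± 0.691 for JAK2 (SD, n = 3). IFNAR2 followed at 0.873 ± 0.219, IFNB1 at 0.564 ± 0.287, IFNL1 at 0.0675 ± 0.000814 and IFNLR1 at 0.0351 ± 0.0311 FPKM. The ranges of IFNGR2 and IFNGR1 overlapped, as did those of IFNAR2 and IFNB1 and the range of IFNLR1 with that of IFNL1 in other groups, while TYK2, IFNAR1, JAK1 and JAK2 were separated from each neighbour in control. The interferon gamma receptor chains thus stood well above IFNAR1, and IFNAR1 above its partner IFNAR2. The low level of IFNAR2 has a limit, since 44.2% of its exon bases are shared with a readthrough gene (AP000295.1, 0 to 3 counts) and 39.1% with the antisense gene IL10RB-DT (47 to 81 counts), and how shared reads or strand were counted is not given in the sources used here. IFNLR1 (chr1:24154157-24187959, minus strand) had 0, 4 and 5 counts in control, 4, 2 and 2 in OE-MMP28, 0, 6 and 1 in the anti-IL-8 group and 6, 0 and 5 in the anti-VEGFA group. Its ratio of control to the 9 other libraries was 1.02 (95% interval 0.420 to 2.24, counting error only). IL10RB, the partner chain of IFNLR1 (38.1% of its exon bases are shared with AP000295.1), stood at 1.53, 1.85 and 2.07 CPM in control and 1.87, 2.16 and 2.18 CPM in OE-MMP28 (log2 fold change 0.19, 95% interval -0.39 to 0.76, adjusted p = 0.820).

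Of the 7 members that passed the filter on low counts, JAK2 alone was called in OE-MMP28 against control, against a background of 3.16% of tested genes, and it was lower. JAK2 (chr9:4984390-5128183, plus strand) carries the signal of IFNGR2 and of many cytokine and growth factor receptors. Its level was 47.5, 56.1 and 50.9 CPM in control and 32.7, 41.6 and 27.3 CPM in OE-MMP28. The anti-IL-8 libraries had 24.1, 32.3 and 22.7 CPM, and the anti-VEGFA libraries 31.7, 33.7 and 36.8 CPM. Every library from an OE-MMP28 coculture was below every control library, and the 3 groups with OE-MMP28 cells overlapped one another. The log2 fold change was -0.60 in OE-MMP28 (SE 0.16, adjusted p = 0.0484, edgeR's quasi-likelihood test). The call stood close to the threshold: under 15 alternatives the value ranged from -0.78 to -0.46 and the call was lost in 9, with an adjusted p of up to 0.233. Leaving out control replicate 1, 2 or 3 or OE-MMP28 replicate 1 or 3 ended it (adjusted p = 0.0953, 0.233, 0.125, 0.158 and 0.171), and leaving out OE-MMP28 replicate 2 kept it (0.0084).

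JAK2 was also called lower than control in both antibody groups, which share the control libraries with the comparison above. The log2 fold change was -0.97 with anti-IL-8 (SE 0.16, adjusted p = 8.5e-04), and no alternative of 15 ended that call. It was -0.60 with anti-VEGFA (SE 0.16, adjusted p = 0.0252), and leaving out any 1 of the 6 libraries ended that call (adjusted p = 0.0517 to 0.117). Between anti-VEGFA and anti-IL-8, JAK2 differed by 0.37 (95% interval 0.03 to 0.71, adjusted p = 0.306). The log2 fold change of JAK2 was thus far smaller in size than the median of the interferon-stimulated genes in each of these comparisons, -3.40, -3.67 and -2.98. The genes with the most similar course over the 12 libraries, out of 13790 with a mean of at least 1 CPM, were TCF4, EHBP1 and DEK, whose centred log2 levels differed from those of JAK2 by a root mean square of 0.0982, 0.101 and 0.109.

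The type I receptor chains showed no detectable loss in OE-MMP28. IFNAR1 (chr21:33324477-33359862, plus strand) had 104, 102 and 101 CPM in control and 106, 125 and 85.0 CPM in OE-MMP28. The control libraries lay within the range of the OE-MMP28 libraries, of which replicate 3 was the lowest. The log2 fold change was 0.04 (95% interval -0.23 to 0.31, adjusted p = 0.933). IFNAR2 (chr21:33229901-33265675, plus strand) had 2.89, 4.73 and 4.61 CPM in control and 4.50, 4.20 and 3.62 CPM in OE-MMP28. The log2 fold change was 0.01 with a wide interval (-0.50 to 0.53, adjusted p = 0.990), so a moderate change in either direction could not have been seen. TYK2 (chr19:10350529-10380676, minus strand), the kinase of IFNAR1, had 192, 215 and 205 CPM in control and 198, 156 and 207 CPM in OE-MMP28, which overlapped (log2 fold change -0.13, interval -0.39 to 0.14, adjusted p = 0.711). JAK1 (chr1:64833229-64966504, minus strand) had 85.5, 86.9 and 82.7 CPM in control and 99.9, 122 and 78.9 CPM in OE-MMP28, again overlapping (0.24, interval -0.05 to 0.53, adjusted p = 0.471).

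The interferon gamma receptor chains had higher means in OE-MMP28 than in control, without passing the adjusted threshold. IFNGR1 (chr6:137197484-137219449, minus strand), the ligand-binding chain, had 117, 114 and 126 CPM in control and 148, 154 and 152 CPM in OE-MMP28. IFNGR2 (chr21:33402896-33479348, plus strand) had 109, 110 and 119 CPM in control and 127, 129 and 155 CPM in OE-MMP28. In both genes the 3 OE-MMP28 libraries lay above the 3 controls. The log2 fold changes were 0.34 for IFNGR1 (SE 0.12, adjusted p = 0.171) and 0.28 for IFNGR2 (SE 0.13, adjusted p = 0.317). With JAK2, 3 of 7 members did not overlap between the groups, where 21.3% of all tested genes did not, and the same 3 had an unadjusted p under 0.05, where 14.5% of all tested genes did. IFNGR2 shares 12.8% of its exon bases with TMEM50B on the opposite strand (253 to 416 counts).

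**Figure D2:**
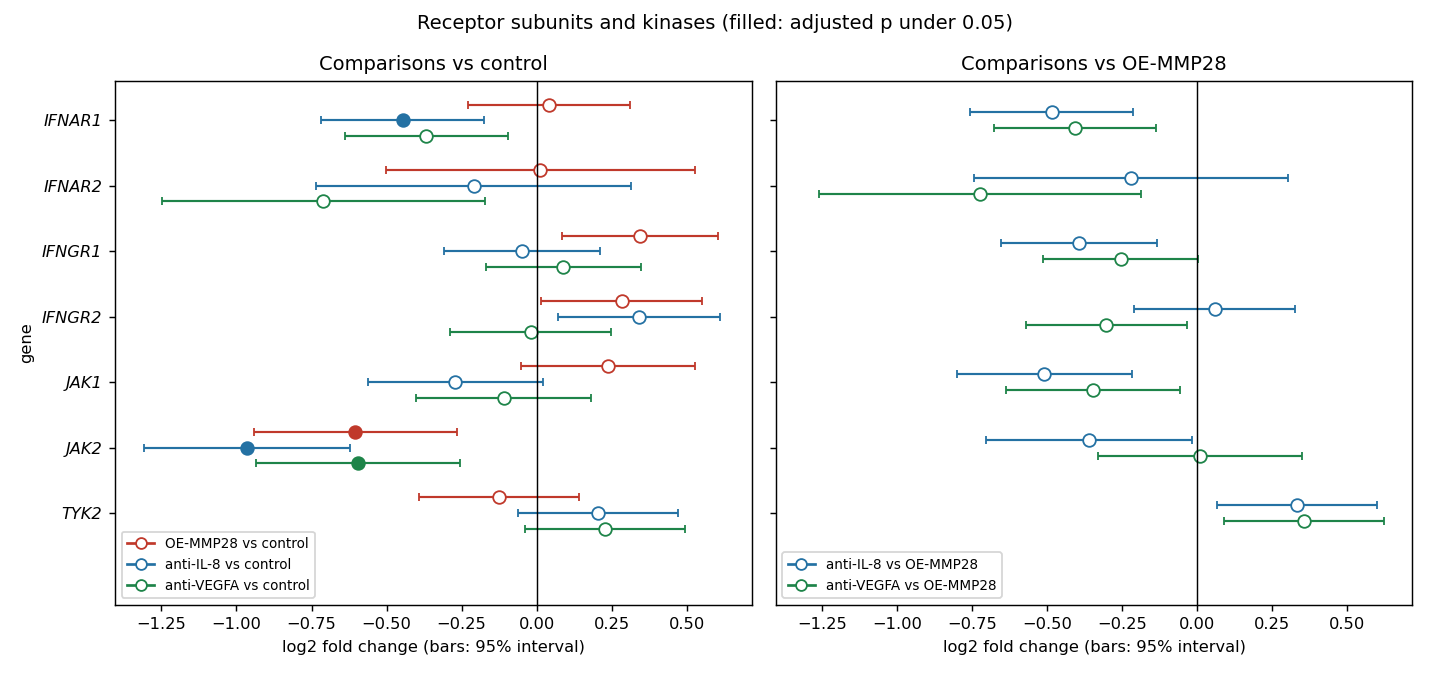
Log2 fold change (horizontal axis) with its 95% interval for the 7 tested members (vertical axis), in the 3 comparisons with control on the left and the 2 comparisons with OE-MMP28 on the right. Filled points passed an adjusted p under 0.05, which were JAK2 in all 3 comparisons with control and IFNAR1 with anti-IL-8 against control, and no member on the right passed.

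With anti-IL-8, IFNAR1 and JAK1 had lower means than in OE-MMP28, but no member passed the adjusted threshold. IFNAR1 had 73.1, 78.4 and 73.9 CPM with anti-IL-8, below each OE-MMP28 library (log2 fold change -0.49, SE 0.13, adjusted p = 0.0627). JAK1 had 63.8, 74.3 and 73.1 CPM, also below each OE-MMP28 library (-0.51, SE 0.14, adjusted p = 0.0627). The intervals, -0.76 to -0.21 and -0.80 to -0.22, did not reach 0. IFNGR1 had 125, 114 and 106 CPM, against 148 to 154 CPM in OE-MMP28 (-0.39, SE 0.12, adjusted p = 0.0693). TYK2 was on the other side, with 226, 234 and 246 CPM, above each OE-MMP28 library (0.33, SE 0.13, adjusted p = 0.102). These 4 members did not overlap, where 29.0% of all tested genes did not, and with JAK2 (-0.36, interval -0.71 to -0.02) 5 of 7 had an unadjusted p under 0.05, where 29.3% of all tested genes did. IFNGR2 had 160, 135 and 132 CPM (0.06, interval -0.21 to 0.33) and IFNAR2 4.56, 2.72 and 3.30 CPM (-0.22, interval -0.75 to 0.30), and both overlapped.

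The share called at the adjusted threshold was 0 over all 16046 genes in this comparison, with 4700 at an unadjusted p under 0.05, so a count of 0 members equals the background. limma's voom also called 0 genes, while DESeq2 called 2122, among them 4 members (IFNAR1, IFNGR1, JAK1 and TYK2). The count depended on OE-MMP28 replicate 3: without that library, 4183 genes and 5 members were called (IFNAR1, IFNGR1, JAK1, JAK2 and TYK2), with log2 fold changes of -0.61, -0.38, -0.64, -0.48 and 0.42.

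With anti-VEGFA, both type I receptor chains had lower means than in OE-MMP28, and again no member passed the adjusted threshold, where 0.343% of all tested genes were called. IFNAR2 had 2.97, 2.16 and 2.34 CPM, below each OE-MMP28 library (log2 fold change -0.72, SE 0.26, adjusted p = 0.158), on 34 to 50 counts a library. IFNAR1 had 79.7, 76.4 and 81.9 CPM (-0.41, SE 0.13, adjusted p = 0.127), and TYK2 had 258, 238 and 220 CPM (0.35, SE 0.13, adjusted p = 0.162). IFNAR1 lay below and TYK2 above each OE-MMP28 library. IFNGR2 had 104, 124 and 104 CPM (-0.30, interval -0.57 to -0.03), JAK1 76.9, 78.4 and 81.1 CPM (-0.35, interval -0.64 to -0.06) and IFNGR1 119, 113 and 148 CPM (-0.26, interval -0.51 to 0.00), the highest of which was level with the lowest OE-MMP28 library. JAK2 differed by 0.01 (interval -0.33 to 0.35). In total 5 of 7 members did not overlap (18.1% of all tested genes) and 5 had an unadjusted p under 0.05 (18.8%). By other tools the count of members called was also 0 with DESeq2 and with limma's voom, and without OE-MMP28 replicate 3 it was 3 (IFNAR1, JAK1 and TYK2). Of all 16046 genes, DESeq2 called 429, limma's voom 70 and the fit without that library 1466.

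Against control, the anti-IL-8 group had 2 members called and the anti-VEGFA group 1, where 20.7% and 11.0% of all tested genes were called and 10.9% and 5.37% were called lower. Besides JAK2, IFNAR1 was called lower with anti-IL-8 (log2 fold change -0.45, SE 0.13, adjusted p = 0.0232), and its 73.1 to 78.4 CPM lay below the 101 to 104 CPM of control. That call was lost when any control library or anti-IL-8 replicate 1 or 3 was left out (adjusted p = 0.0667 to 0.108). With anti-VEGFA, IFNAR1 also lay below control in each library, at -0.37 (interval -0.64 to -0.10, adjusted p = 0.0740). IFNAR2 differed by -0.71 with anti-VEGFA (interval -1.25 to -0.17, adjusted p = 0.0814). The interferon gamma receptor chains, whose means were higher in OE-MMP28, differed from control by -0.05 (IFNGR1, interval -0.31 to 0.21) and 0.34 (IFNGR2, 0.07 to 0.61, adjusted p = 0.0668) with anti-IL-8, and by 0.09 (-0.17 to 0.35) and -0.02 (-0.29 to 0.25) with anti-VEGFA. The kinases JAK1 and TYK2 differed by -0.27 (-0.56 to 0.02) and 0.20 (-0.06 to 0.47) with anti-IL-8, and by -0.11 (-0.40 to 0.18) and 0.23 (-0.04 to 0.49) with anti-VEGFA. In all, 5 members (anti-IL-8) and 4 members (anti-VEGFA) did not overlap with control, where 47.8% and 34.3% of all tested genes did not.

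The antibody groups were also compared with each other, a comparison added after the values were seen. No member was called, where 0.199% of all tested genes were. DESeq2 and limma's voom also called 0 members, where they called 245 and 31 of 16046 genes. IFNGR2 had a lower mean with anti-VEGFA (log2 fold change -0.36, interval -0.63 to -0.09, adjusted p = 0.215), and the intervals of IFNGR2 and JAK2 were the only member intervals that did not include 0. All 24 tested interferon-stimulated genes had a log2 fold change above 0 here, with a median of 0.62, and 0 of them were called. Of the 7 tested members, 5 were above 0, with a median of 0.08. The median over all tested genes was 0.02.

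The lists for other steps of the pathway held called genes too. The background for each list below is that 3.16% of all tested genes were called in OE-MMP28 against control, and 2.64% were called lower. Of 7 signal transducers reported here, STAT2 and IRF9 fell in OE-MMP28 against control. STAT2 had 281, 322 and 276 CPM in control and 129, 101 and 100 CPM in OE-MMP28 (-1.41, SE 0.14, adjusted p = 3.6e-06), and IRF9 went from 8.48, 9.63 and 8.46 CPM to 5.54, 3.80 and 4.86 CPM (-0.90, SE 0.21, adjusted p = 0.0181). In both genes the groups were fully separated. The median of the 7 transducers was -0.21, against 0.02 over all tested genes. STAT2 is itself known to be induced by interferon. For the called genes of this list and the lists below, a fall separate from that of the interferon-stimulated genes was not tested.

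Among 11 sensors, adaptors and factors upstream of ligand transcription, 3 fell: IRF7, which drives alpha interferon genes (-1.65, SE 0.20, adjusted p = 2.2e-05), MYD88, the adaptor of Toll-like receptors (-1.08, SE 0.12, adjusted p = 1.2e-05), and IRF1 (-0.80, SE 0.15, adjusted p = 0.0045). IRF7 had 212, 221 and 184 CPM in control and 69.6, 45.8 and 80.7 CPM in OE-MMP28, without overlap. The median of the 11 genes was -0.27. Of 13 negative regulators only USP18, which binds IFNAR2 and restrains type I signalling, was called, from 112, 126 and 93.3 CPM in control to 19.8, 14.0 and 10.6 CPM in OE-MMP28 (-2.89, SE 0.20, adjusted p = 1.7e-08), and the median of that list was -0.04. The feedback inhibitors SOCS1 and SOCS3 were not called (-0.69, interval -1.65 to 0.27, and -0.33, interval -0.67 to 0.01). Among 14 tested receptor genes of other cytokines that signal through Janus kinases, 2 fell, IL15RA (-1.0, SE 0.14, adjusted p = 1.7e-04) and CSF3R (-0.53, SE 0.14, adjusted p = 0.0406), and the list's median was -0.19. For the 7 tested members the median was 0.04, beside 0.02 over all tested genes. JAK3, the Janus kinase of lymphoid cytokine receptors, was at the limit of detection, with means of 0.156 CPM in control and 0.123 CPM in OE-MMP28.

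**Figure D3:**
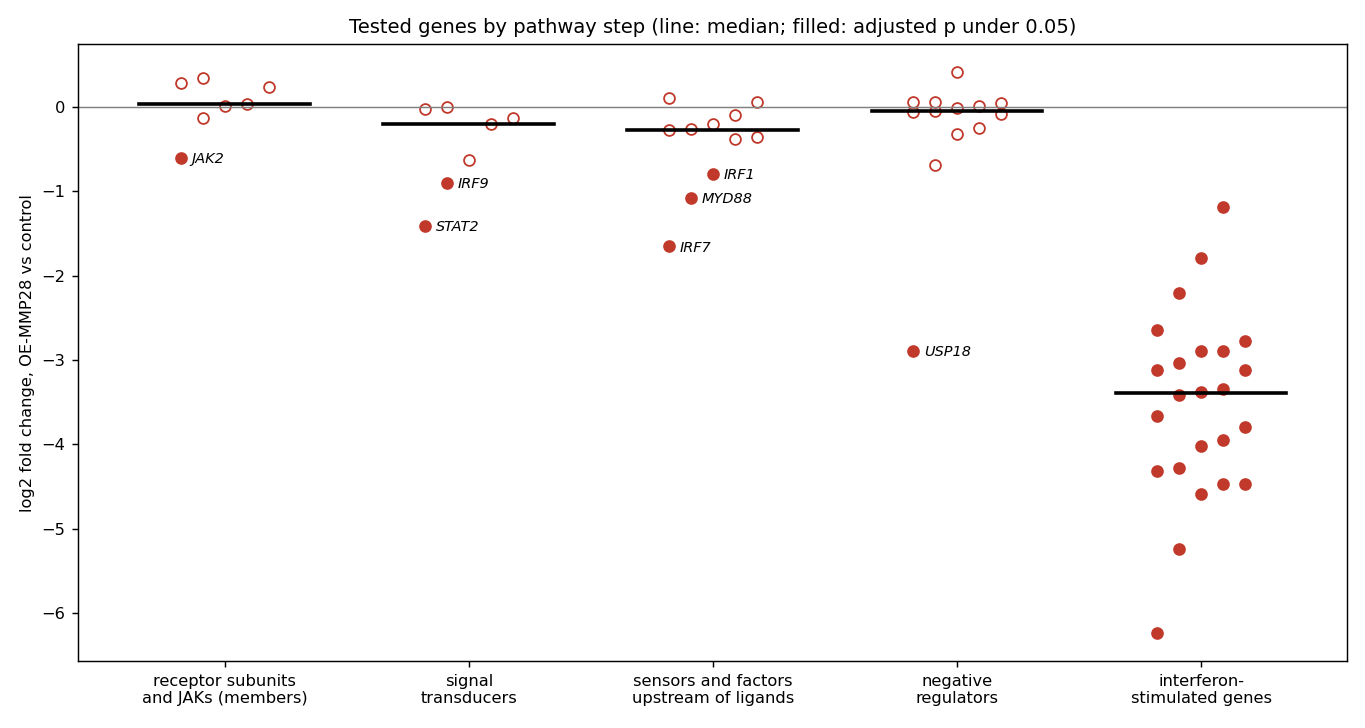
Log2 fold change in OE-MMP28 against control (vertical axis) for the tested genes of each step of the pathway (horizontal axis), with 1 point per gene, a line at the median of each list and filled points for an adjusted p under 0.05. The receptor and kinase members sit around 0 with JAK2 at -0.60, whereas all 24 interferon-stimulated genes lie below 0, with a median of -3.40.

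In the comparisons of the antibody groups with OE-MMP28, none of these pathway genes was called either. The interferon-stimulated genes had a median of -0.35 (anti-IL-8) and 0.37 (anti-VEGFA), with 0 of 24 called in each (edgeR's quasi-likelihood test). At an unadjusted p under 0.05, 7 were lower and 2 higher with anti-IL-8, and 6 were higher and 0 lower with anti-VEGFA. Of all tested genes, 29.3% and 18.8% had such a p in these comparisons. The members' medians were -0.36 and -0.30, and those over all tested genes were -0.02 and -0.001. With anti-VEGFA, 21 of the 24 interferon-stimulated genes and 2 of the 7 tested members (TYK2 and JAK2) had a log2 fold change above 0, and no gene of either list was called.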

How the data were processed

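RNA of 12 TAM libraries (4 groups of 3, grouped by their titles) was sequenced after NEBNext Ultra library preparation. Reads were counted per gene by the authors, and the deposited read counts are whole numbers without normalization. Per the submitters' processing notes, HISAT2 2.0.5 and featureCounts 1.5.0-p3 were used. The genome build, the strand setting and the treatment of reads shared by genes are not given in the sources used here, but the starts and ends of all 58735 genes equal those of GENCODE 29 (GRCh38). The deposited FPKM values were made by the authors from these counts, and their scaling totals differed from the summed counts by -6.11% to 8.06%. The table also holds the authors' own group means and comparisons (log2 fold changes with raw and adjusted p-values), which were not used here. Columns of other samples left unused: 0.

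Counts were analysed in R 4.3.3 with edgeR 4.0.16. The filter on low counts (filterByExpr, given the 4 groups) retained 16046 genes and 7 of the 10 members. After TMM scaling, all 12 libraries entered 1 quasi-likelihood fit in which each group had its own mean (common dispersion 0.0231). Benjamini-Hochberg adjustment was made over all tested genes of a comparison, and genes with an adjusted p under 0.05 are said to be called. Log2 fold changes are those of this fit with its default prior count, while log2 levels per library use a prior count of 2. Intervals of 95% come from the same fit, and ratios of summed counts have exact conditional intervals for counting error. The ligands were compared with an exact permutation test on CPM. The study names limma with an unadjusted p under 0.05, and both choices were tried as alternatives, with DESeq2 1.42.0, limma 3.58.1 on counts and on log2(FPKM + 1) or log2(FPKM + 0.1), library totals, other filters on low counts, fits restricted to 2 groups, a replicate block and each library left out. The comparison of the antibody groups, and the fits of IFNB1 without a filter and 1 library, were added after values were seen.

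The members, pathway lists and marker lists were chosen with earlier results of these data known. All 10 members are named. From the lists, IL10RB, JAK3, STAT2, IRF9, IRF7, SOCS1, SOCS3 and USP18 are named, and in each other list up to 3 genes with the smallest p among those called in OE-MMP28 against control. For a member called in that comparison, the 3 genes with the most similar course are named. The markers CD68, CD14, AIF1, ITGAM, CSF1R, EPCAM and MUC1, the ligand genes with counts and the genes that overlap members were named after their values were seen. A gene of the transducer list is not reported here. The fit was tested on simulated data. Tables and figures were made in Python 3.11.15 with pandas 2.3.3, scipy 1.17.1 and matplotlib 3.10.9.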

Additional observations from a re-analysis of the deposited data

How the results depend on the processing

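Of 630 fold changes of members under alternatives, 571 kept their direction and side of the threshold, 21 became called, 20 lost the call and 18 changed sign. The number of members called in OE-MMP28 against control (1) became 0 with library totals, with a fit of the 2 groups and with FPKM at either pseudocount, 3 by unadjusted p, and 0 to 1 with a library left out. Of 16046 genes, library totals called 497, the fit of the 2 groups 472, and the FPKM fits 479 and 442. Unadjusted p called 2332 genes, and fits with a library left out called 297 to 512. For anti-IL-8 against OE-MMP28 (0) the number of members became 4 with DESeq2, 2 without a filter, 5 by unadjusted p and 0 to 5 with a library left out (5 without OE-MMP28 replicate 3). In the same order, these settings called 2122 of 16046 genes, 1438 of 34435, 4700 of 16046 and 0 to 4183 of 16046. For anti-VEGFA against OE-MMP28 (0) the number of members became 5 by unadjusted p and 0 to 3 with a library left out (3 without OE-MMP28 replicate 3). Of 16046 genes, unadjusted p called 3019. Fits with a library left out called 8 to 1466, the most without OE-MMP28 replicate 3. Against control, anti-IL-8 (2) gave 5 members in a fit of the 2 groups, which called 6057 of 16046 genes. With a library left out it gave 1 to 2, where 1268 to 2951 genes were called. Anti-VEGFA against control (1) gave 2 without a filter (2112 of 34435 genes), 2 in a fit of the 2 groups (2062 of 16046) and 3 by unadjusted p. With any library left out it gave 0, where 673 to 1654 genes were called. For anti-VEGFA against anti-IL-8 (0) the number of members was 2 by unadjusted p. The IFNB1 difference was 0.282 to 0.521 CPM with a control library left out. The cause of these changes was not tested, and fits that leave 1 library out also hold fewer libraries. Depth limits IFNB1, IFNL1 and IFNLR1, whose levels rest on 13 counts a library or fewer.

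With a replicate block, members called were 2 instead of 0 for anti-IL-8 against OE-MMP28 (IFNAR1 and JAK1) and the same number in the 5 other comparisons. For anti-IL-8 against OE-MMP28 that fit called 795 of 16046 genes, where the main fit called 0. The replicate numbers were not taken to pair the libraries: of 18 same-numbered pairs, 4 had deviations from the group means that correlated by more than 0.1 (range -0.160 to 0.237).

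The 18 changes of sign were all in members that were not called. In OE-MMP28 against control, IFNAR1 ran from -0.10 to 0.18 with a library left out, and IFNAR2 from -0.18 to 0.13, with -0.026 with library totals and -0.00069 with the replicate block. Against OE-MMP28, IFNGR2 with anti-IL-8 ran from -0.016 to 0.17 and JAK2 with anti-VEGFA from -0.12 to 0.18, with -0.0084 without a filter. Against control, IFNGR1 ran from -0.087 to 0.0063 with anti-IL-8 and from -0.028 to 0.16 with anti-VEGFA, and IFNGR2 with anti-VEGFA from -0.11 to 0.033. TYK2 between the antibody groups ran from -0.037 to 0.066.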
